A study of Mus musculus with 6 samples.

Results

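The 10 genes described here encode secreted factors that switch Wnt signaling on or hold it back: the ligands *Wnt2*, *Wnt2b*, *Wnt4* and *Wnt5a*, the R-spondins *Rspo1* and *Rspo3*, and the modulators *Sfrp1*, *Sfrp2*, *Sfrp4* and *Dkk3*. They were chosen by name and are 10 of the 19069 genes listed on at least 1 plate. The cells came from colon tumors of mice given azoxymethane and dextran sulfate sodium (AOM/DSS), a model in which a mutagen and repeated colitis give rise to epithelial tumors. All mice carried floxed *Zeb1* alleles on a C57BL/6 background and were littermates of both sexes; their age is not given in the sources used here. In the 3 Zeb1Fib-deleted mice (plates 2, 5 and 6) a Col6a1-Cre transgene deleted *Zeb1*, which encodes a transcription factor of epithelial-mesenchymal transition, so that the deletion is limited to cells in which this promoter is or was active, and the 3 Zeb1Fib-Ctrl mice (plates 1, 3 and 4) had no Cre. Viable cells negative for EPCAM, CD45 and CD31 were sorted into 384-well plates, with 1 plate per mouse, and their mRNA molecules were counted from the 3′ end (SORT-seq).

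Wnt ligands bind Frizzled receptors together with LRP co-receptors and stabilize β-catenin, or act through other routes, of which Wnt5a is the best known ligand. R-spondins bind LGR receptors and keep Frizzled receptors at the cell surface, and in the normal colon the stroma under the crypts supplies both to the stem cells. Secreted frizzled-related proteins (SFRPs) bind Wnt proteins outside the cell, and Dkk3 is a divergent member of the Dickkopf family of Wnt antagonists. Subepithelial telocytes, fibroblasts known for *Foxl1* and BMP ligands, are a described source of Wnt5a in the gut.

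Of 2304 wells, 1233 passed the filter of 100 to 6000 genes and under 10% mitochondrial transcripts. The plates held between 1575726 and 3699058 transcripts in all, and the median fibroblast well of a plate held between 7146 and 15773. Fibroblast wells, in which at least 5 of 10 fibroblast markers were found, numbered 173, 162, 13, 59, 119 and 11 on plates 1 to 6, and plates 3 and 6 consisted mostly of neutrophil-like wells (82.4% and 56.9% of the wells kept). Fibroblast wells were gated by 3 lists of 8 markers into 274 inflammatory CAF (iCAF)-like wells (*Pi16*, *Clec3b*, *Ly6c1*, *Dpp4*, *Has1*, *Ptx3*, *Cd34* and *Dpt*) and 112 telocyte-like wells (*Foxl1*, *Bmp7*, *Bmp5*, *Bmp3*, *Nrg1*, *Sox6*, *F3* and *Il1rl1*). A further 41 went to the *Cxcl13* and *Grem1* gate (*Cxcl13*, *Grem1*, *Tnfsf13b*, *Tnfsf11*, *Ccl19*, *Ackr4*, *Edil3* and *Hapln1*), and 110 had too few markers or a tie. Wells of the *Cxcl13* and *Grem1* gate held a median of 5 of its own markers and 4 of the iCAF-like markers, so that these 2 gates are close. In iCAF-like wells these medians were 1 and 5. Pericyte-like wells numbered 85. None of the 10 genes was used for a gate, but the marker lists were chosen with earlier results of these data known. The p-values between gates therefore describe these wells and are no independent test. Of the 427 gated fibroblast wells, 116 led by 1 marker only. *Zeb1* itself stood at 111, 157 and 93.6 counts per 1000000 transcripts (CPM) in fibroblast wells of plates 1, 3 and 4. On plates 2, 5 and 6 it stood at 59.4, 74 and 37 CPM, so that the genotypes did not overlap. The same held for 6.6% of the 8600 genes tested between genotypes. The values of plates 3 and 6 rest on 25 and 6 *Zeb1* transcripts. Transcripts remained in Zeb1Fib-deleted wells, and whether the counted 3′ end lies outside the floxed part is not given in the sources used here, so that this checks the labels in part only.

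Levels are given in CPM of the summed wells of a mouse, without division by length because molecules are counted once at their end, and gates were compared over sums of at least 10 wells per mouse. This left 12 sums from plates 1, 2, 4 and 5. Each gate was tested against the mean of the other 3 with mouse in the model (edgeR quasi-likelihood test, adjusted over 9000 genes at 0.05), and, because the pericyte-like wells held little of most of these genes, each fibroblast gate was also tested against the mean of the other 2 fibroblast gates in the same fit. Where a gate held no transcript, no fold change is given. Plate 5 had an iCAF-like sum only. With mouse in the model this sum adds nothing to the differences between gates, and its levels are given for description.

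Since *Zeb1* was the gene deleted, the promoters of these genes were searched for the E-box CACCTG, which ZEB1 is known to bind and which reads CAGGTG on the other strand, and for CTTTGA, which reads TCAAAG on the other strand and is the core bound by TCF/LEF factors of the Wnt pathway. The 250 bases before the RefSeq start (GRCm38.p6) were at hand for 5 of the 10 genes: *Rspo1*, *Sfrp2*, *Wnt2*, *Wnt2b* and *Wnt4*. The E-box was found in *Wnt2b* and *Wnt4*, with 1 match each, and the TCF/LEF core in none of the 5. Of 32851 such windows of all genes, 17.2% held the E-box and 13.8% the TCF/LEF core, and matches of the 2 motifs cannot overlap. The 30 bases around both matches are shown with the E-box in capitals, chr3:104961900-104961929 (minus strand) for *Wnt2b*, where the match begins 208 bases before the start, and chr4:137277605-137277634 (plus strand) for *Wnt4*, where it begins 15 bases before the start. Both lie at least in part inside the span of their gene in the GENCODE annotation of GRCm38, which begins farther upstream.
Wnt2b: gggtggccagagCAGGTGgggacgcggcgc
Wnt4: cgtccgcgcggcgccCACCTGccgccccga
The promoter of *Sfrp2* is shown as the window without either motif that belongs to the gene with the clearest gate among those at hand, chr3:83766071-83766320 (plus strand), just upstream of the gene at chr3:83766321-83774316.
Sfrp2: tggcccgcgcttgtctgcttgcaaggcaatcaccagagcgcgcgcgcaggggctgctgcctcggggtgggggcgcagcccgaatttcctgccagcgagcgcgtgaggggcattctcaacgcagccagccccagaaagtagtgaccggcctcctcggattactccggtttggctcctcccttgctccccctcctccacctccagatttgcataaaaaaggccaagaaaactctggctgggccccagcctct
Binding was not measured here, and neither *Wnt2b* nor *Wnt4* passed the test between genotypes given further on.

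**Figure D1:**
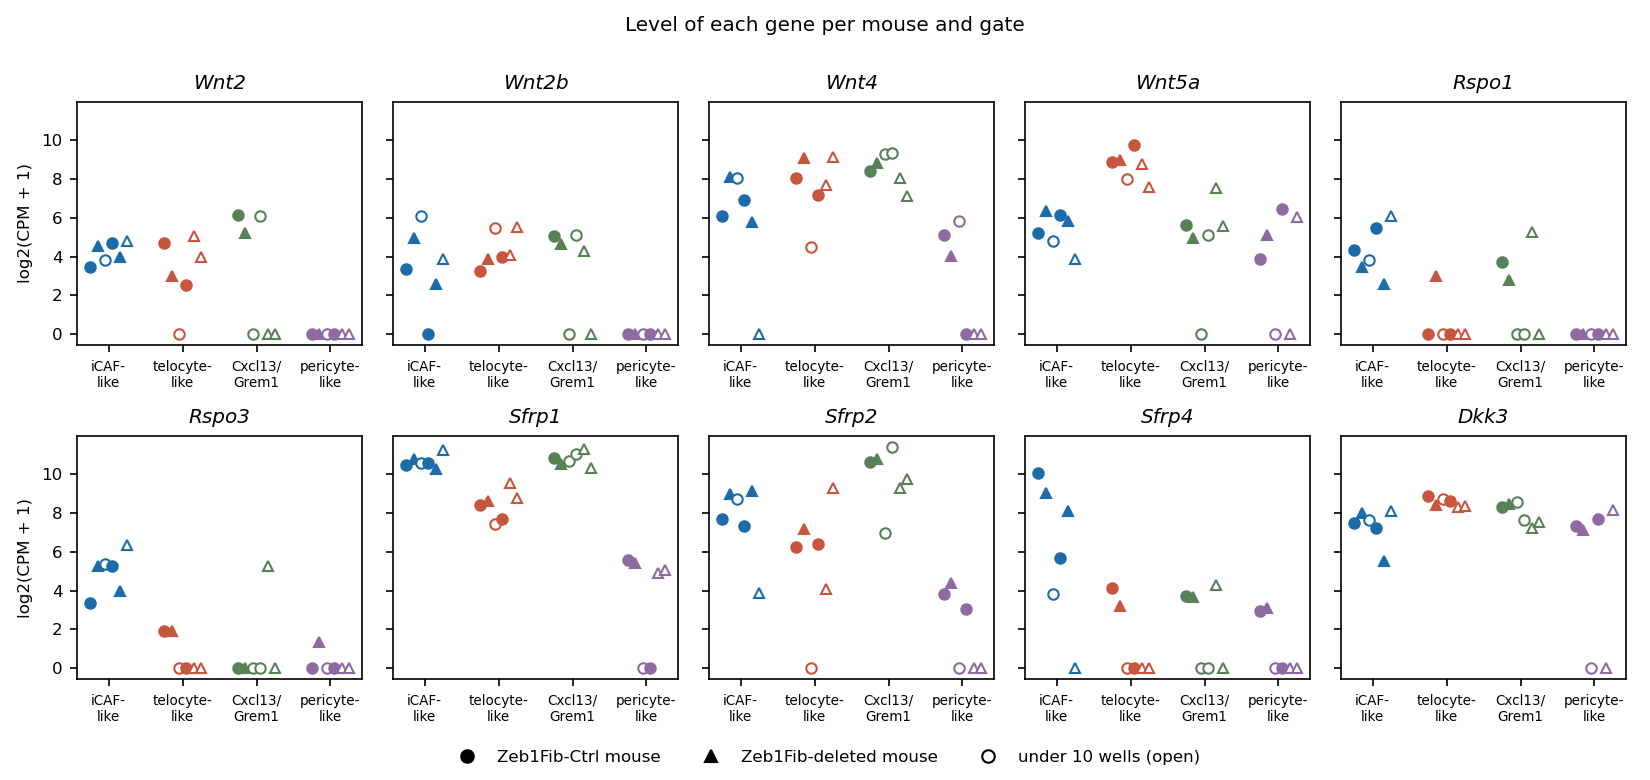
Level of each of the 10 genes, as log2(CPM + 1), per mouse in the 4 gates; circles are Zeb1Fib-Ctrl and triangles Zeb1Fib-deleted mice in the order of plates 1 to 6, and open symbols are sums of under 10 wells, which were not tested. Among filled symbols *Wnt5a* is highest in the telocyte-like gate, *Sfrp4* in the iCAF-like gate and *Sfrp2* in the *Cxcl13* and *Grem1* gate. With open symbols included, *Sfrp4* runs from 0 to 1072 CPM in the iCAF-like gate, while *Wnt2*, *Wnt2b* and *Rspo1* are at 0 in all 6 pericyte-like sums.

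*Wnt5a* was higher in telocyte-like wells than in the other gates. Its level was 475 CPM on plate 1, 509 on plate 2 and 868 on plate 4 in these wells. The 4 iCAF-like sums held 36.7, 80.1, 69 and 55.8 CPM on plates 1, 2, 4 and 5, the 2 sums of the *Cxcl13* and *Grem1* gate 48.4 and 29.6 CPM, and the 3 pericyte-like sums 13.5, 33.9 and 87.8 CPM. All 3 telocyte-like sums were above all 9 others. The difference was 3.52 on the log2 scale against the other gates (SE 0.23, edgeR adjusted p = 3.4e-11) and 3.31 against the other fibroblast gates (SE 0.27, edgeR adjusted p = 2.8e-09). Telocyte-like wells held 62.9% of all *Wnt5a* transcripts in the wells kept, and 17.2% of the transcripts of all genes. With each well reduced to 1000 transcripts, *Wnt5a* was found in 37.8% of 111 telocyte-like wells and in 6.30% of 270 iCAF-like wells. It was found in 0.794% of 252 neutrophil-like wells, which serve as the background of free RNA. Before reduction these wells numbered 366, with 182 on plate 3 and 62 on plate 6, both outside the test. Fibroblast markers summed to 1711 and 1142 CPM in neutrophil-like wells of plates 3 and 6. On plates 1, 2 and 4 they summed to 3738, 5045 and 1640 CPM, so that this background need not hold for each plate tested. On plates 3, 5 and 6, which had 4, 5 and 5 telocyte-like wells and were not part of the test, the levels were 258, 430 and 194 CPM.

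*Wnt4* was spread over 2 gates. It stood at 263, 535 and 146 CPM in the telocyte-like sums of plates 1, 2 and 4, at 335 and 451 CPM in the *Cxcl13* and *Grem1* sums of plates 1 and 2, and at 66.9, 278, 119 and 54.5 CPM in the iCAF-like sums of plates 1, 2, 4 and 5. Against all other gates it was higher in telocyte-like wells (1.79 on the log2 scale, SE 0.28, edgeR adjusted p = 6.2e-05) and in *Cxcl13* and *Grem1* wells (2.03, SE 0.33, edgeR adjusted p = 0.00014). Among fibroblast gates neither difference passed the test (edgeR adjusted p = 0.50 and 0.53), and the call was that *Wnt4* was lower in iCAF-like wells by a log2 difference of -1.07 (SE 0.30, edgeR adjusted p = 0.025). Pericyte-like wells held 17 transcripts of *Wnt4* in all.

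*Wnt2* and *Wnt2b*, which signal through β-catenin, were rare, with 137 and 129 transcripts in all wells kept. *Wnt2* stood at 68.6 and 35.6 CPM in the *Cxcl13* and *Grem1* sums of plates 1 and 2, at 25.4, 6.84 and 4.86 CPM in the telocyte-like sums, and at 10.1, 22, 25.1 and 14.9 CPM in the iCAF-like sums. The call of a higher level in the *Cxcl13* and *Grem1* gate (edgeR adjusted p = 0.0057) was lost without plate 1 (0.27), without plate 2 (0.092) and against fibroblast gates only (0.27, with a log2 difference of 1.76 and SE 0.62). *Wnt2b* passed the test in no fibroblast gate, with 32.3 and 23.7 CPM in the *Cxcl13* and *Grem1* sums, 8.46, 13.7 and 14.6 CPM in the telocyte-like sums and 9.16, 30.02, 0 and 4.95 CPM in the iCAF-like sums of plates 1, 2, 4 and 5. The 85 pericyte-like wells held no transcript of either ligand, of 1035919 transcripts in all, which allows up to 2.90 CPM if 3 counts are taken as the floor over these wells. Over all fibroblast wells together the level of *Wnt2* was at least 6.97-fold higher than this floor, and that of *Wnt2b* at least 6.48-fold, and both were called lower in pericyte-like wells (edgeR adjusted p = 0.0019 and 0.0033; 0.080 for *Wnt2* without plate 2). The floor covers counting error only.

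The R-spondins were found mainly in iCAF-like wells, at low counts. *Rspo3* had 111 transcripts in all, of which 66.7% were in iCAF-like wells, and *Rspo1* had 77, of which 62.3% were. *Rspo3* stood at 9.16, 37.1, 37.6 and 14.9 CPM in the iCAF-like sums of plates 1, 2, 4 and 5, against 2.82, 2.74 and 0 CPM in the telocyte-like sums of plates 1, 2 and 4 and no transcript in both sums of the *Cxcl13* and *Grem1* gate. Every iCAF-like sum of *Rspo3* was above every sum of the other gates tested. Its higher level in iCAF-like wells passed the test against all gates (edgeR adjusted p = 0.00019) and against fibroblast gates (0.0026), and missed it without plate 2 (0.082). *Rspo1* stood at 19.2, 10.0, 43.9 and 4.95 CPM in the iCAF-like sums, at 0, 6.84 and 0 CPM in the telocyte-like sums and at 12.1 and 5.93 CPM in the *Cxcl13* and *Grem1* sums, so that the gates overlapped. Its call in the iCAF-like gate (edgeR adjusted p = 0.019) was lost without plate 1 (0.30), without plate 4 (0.052), with DESeq2 (0.080) and against fibroblast gates only (0.24). Reduced to 1000 transcripts per well, *Rspo3* was found in 1.85% and *Rspo1* in 1.11% of iCAF-like wells, and neither in any of 252 neutrophil-like wells, which allows a share of up to 1.19%. At this depth the share of wells that transcribe an R-spondin cannot be read from the share with a transcript.

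*Sfrp1* was found in more fibroblast wells than the other 9 genes and was a gene of 2 fibroblast gates. Its levels were 1409, 1785, 1548 and 1260 CPM in the iCAF-like sums of plates 1, 2, 4 and 5 and 1814 and 1512 CPM in the *Cxcl13* and *Grem1* sums of plates 1 and 2. Telocyte-like sums were lower, at 345, 388 and 209 CPM on plates 1, 2 and 4, and pericyte-like sums were at 47.2, 41.6 and 0 CPM. Against all other gates *Sfrp1* was higher in iCAF-like wells by 2.86 on the log2 scale (SE 0.23, edgeR adjusted p = 7.2e-10) and in *Cxcl13* and *Grem1* wells by 2.54 (SE 0.26, edgeR adjusted p = 1.7e-07), and lower in pericyte-like wells by -4.90 (SE 0.35, edgeR adjusted p = 2.7e-11). The difference among fibroblast gates was 1.38 on the log2 scale for iCAF-like wells (SE 0.24, edgeR adjusted p = 0.00039) and -2.40 for telocyte-like wells (SE 0.27, edgeR adjusted p = 5.1e-07), while the *Cxcl13* and *Grem1* wells, at 1.02 (SE 0.28), missed the threshold (edgeR adjusted p = 0.075). In wells reduced to 1000 transcripts, *Sfrp1* was found in 62.6% of iCAF-like, 73.2% of *Cxcl13* and *Grem1*, 24.3% of telocyte-like and 5.88% of pericyte-like wells. The last share is close to that of the neutrophil-like background (5.56%). Without reduction *Sfrp1* was found in 31.8% of 85 pericyte-like wells and 9.84% of 366 neutrophil-like wells. These wells held a median of 11141 and 1394 transcripts, so that equal shares after reduction need not mean equal amounts of free RNA. The background also differed between plates, as *Sfrp1* ran from 0 to 268 CPM over the neutrophil-like sums of 5 mice. Whether the *Sfrp1* transcripts of pericyte-like wells came from free RNA was not tested.

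*Sfrp2* had its highest level in the *Cxcl13* and *Grem1* wells, which held 26.7% of its transcripts and 5.44% of those of all genes. It was not limited to them, as iCAF-like wells held 39.8% of its transcripts and fibroblast wells without a gate 23.7%. Of 97 wells with at least 10 *Sfrp2* transcripts, 44 were iCAF-like, 24 had no gate, 22 were in the *Cxcl13* and *Grem1* gate and 7 were telocyte-like. *Sfrp2* stood at 1588 and 1794 CPM in the 2 sums of the *Cxcl13* and *Grem1* gate. The iCAF-like sums of plates 1, 2, 4 and 5 held 207, 504, 163 and 556 CPM. The telocyte-like sums of plates 1, 2 and 4 held 76.3, 145 and 82.8 CPM. The groups did not overlap. Against all other gates the *Cxcl13* and *Grem1* gate was higher by 4.35 on the log2 scale (SE 0.24, edgeR adjusted p = 2.9e-12). Among fibroblast gates the difference was 3.12 on the log2 scale for the *Cxcl13* and *Grem1* gate (SE 0.25, edgeR adjusted p = 6.2e-09) and -2.75 for telocyte-like wells (SE 0.26, edgeR adjusted p = 3.4e-08). The direction for iCAF-like wells depended on the gates compared with. It was 1.25 against all other gates (SE 0.23, edgeR adjusted p = 0.00025), a call lost without plate 2 (0.0785), and -0.37 against the other fibroblast gates (SE 0.23, edgeR adjusted p = 0.45). In the wells outside the test, plates 3 to 6 had 1, 2, 3 and 2 wells of the *Cxcl13* and *Grem1* gate with 127, 2745, 635 and 884 CPM. On plate 3 the iCAF-like wells stood above this gate, whose 1 well held 1 *Sfrp2* transcript, with up to 19 in an iCAF-like well.

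*Sfrp4* was mostly a gene of iCAF-like wells, with levels that ran from 0 to 1072 CPM among mice. Of its 2127 transcripts in the wells kept, 90.4% were in iCAF-like wells, which held 33% of the transcripts of all genes. iCAF-like wells of plates 1 to 6 held 1072, 520, 13.3, 50.2, 277 and 0 CPM, where plates 3 and 6 had 6 and 4 such wells. Both genotypes had mice with high and with low values. On plates 1 and 2 the telocyte-like sums held 16.9 and 8.21 CPM, the *Cxcl13* and *Grem1* sums 12.1 and 11.9 CPM and the pericyte-like sums 6.74 and 7.70 CPM. On plates 1, 2 and 4 each iCAF-like sum was above the sums of the other gates of its own mouse. The difference was 6.31 on the log2 scale against all other gates (SE 0.27, edgeR adjusted p = 5.5e-15) and 6.18 among fibroblast gates (SE 0.31, edgeR adjusted p = 3.2e-13). With wells reduced to 1000 transcripts, it was found in 15.9% of iCAF-like wells and in 0.397% of neutrophil-like wells. Of the 36 fibroblast wells with at least 10 *Sfrp4* transcripts, 35 were iCAF-like and 1 had no gate.

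**Figure D2:**
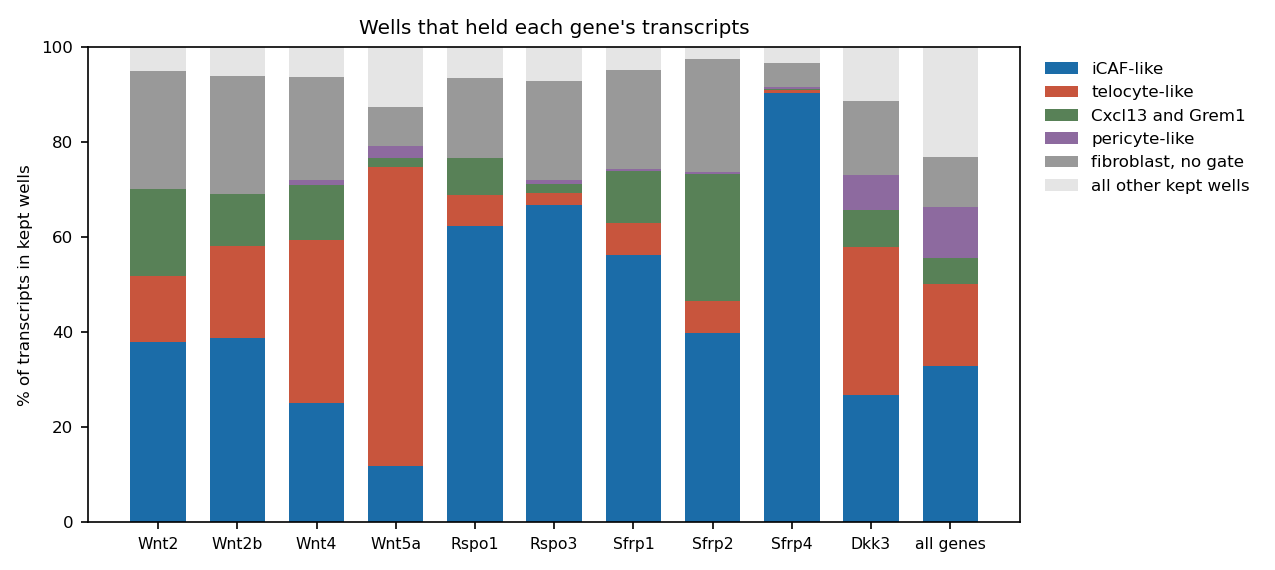
Percent of each gene's transcripts in the 1233 wells kept that came from each gate, with the same split for all genes at the right as the background. iCAF-like wells hold 33% of all transcripts and 90.4% of those of *Sfrp4*, and telocyte-like wells hold 17.2% of all transcripts and 62.9% of those of *Wnt5a*.

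*Dkk3* was found in all gates, pericyte-like wells included. Its levels were 466, 342 and 389 CPM in the telocyte-like sums of plates 1, 2 and 4, 315 and 356 CPM in the *Cxcl13* and *Grem1* sums, 179, 257, 150 and 44.6 CPM in the iCAF-like sums of plates 1, 2, 4 and 5, and 162, 139 and 205 CPM in the pericyte-like sums. It was higher in telocyte-like wells by 0.81 on the log2 scale (SE 0.20, edgeR adjusted p = 0.0090) and lower in pericyte-like wells by -0.98 (SE 0.24, edgeR adjusted p = 0.0033). The telocyte-like call was lost without plate 1 (0.30), without mouse in the model (0.096) and against fibroblast gates only (0.15), and the pericyte-like call without plate 1 (0.051), without plate 2 (0.13) and without mouse in the model (0.11). Pericyte-like wells reduced to 1000 transcripts held *Dkk3* in 10.6% of 85 wells, above the 0.397% of neutrophil-like wells.

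Counted by gate, 5 of the 10 genes were higher in iCAF-like wells (*Rspo1*, *Rspo3*, *Sfrp1*, *Sfrp2* and *Sfrp4*), where 8.2% of all 9000 genes were called higher, and 0 were lower (3.44% of all genes). In telocyte-like wells 3 were higher (*Wnt4*, *Wnt5a* and *Dkk3*) and 2 lower (*Sfrp2* and *Sfrp4*), against 5.81% and 3.17% of all genes. Both lower calls (-0.86 for *Sfrp2* and -1.87 for *Sfrp4* on the log2 scale, edgeR adjusted p = 0.039 and 0.011) were lost without plate 1 (0.37 and 0.095) and without plate 2 (0.35 and 0.47). Of 40 such comparisons 22 were called, and 14 of 36 without plate 2. In the *Cxcl13* and *Grem1* gate 4 were higher (*Wnt2*, *Wnt4*, *Sfrp1* and *Sfrp2*), and 0 lower, against 3.29% and 0.9% of all genes. In pericyte-like wells 8 were lower (all except *Rspo1* and *Rspo3*, edgeR adjusted p = 0.076 and 0.98) and 0 higher, against 9.97% and 10.1% of all genes. The median log2 difference of the 10 genes was 1.88, 0.40, 2.01 and -4.53 in these gates, and that of all genes was between -0.01 and 0.05. Against the other fibroblast gates only, 3 genes were higher and 2 lower in iCAF-like wells (5.0% and 2.74% of all genes), 1 higher and 3 lower in telocyte-like wells (4.9% and 4.74%), and 1 higher and 2 lower in the *Cxcl13* and *Grem1* gate (0.778% and 0.344%). In this comparison *Sfrp1*, *Sfrp2* and *Sfrp4* were all lower in telocyte-like wells, while *Wnt5a* was higher there and lower in both other gates. *Sfrp4* was lower in the *Cxcl13* and *Grem1* gate by -3.15 on the log2 scale (SE 0.54, edgeR adjusted p = 0.0017), so that the gate highest in *Sfrp2* was among those low in *Sfrp4*.

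**Figure D3:**
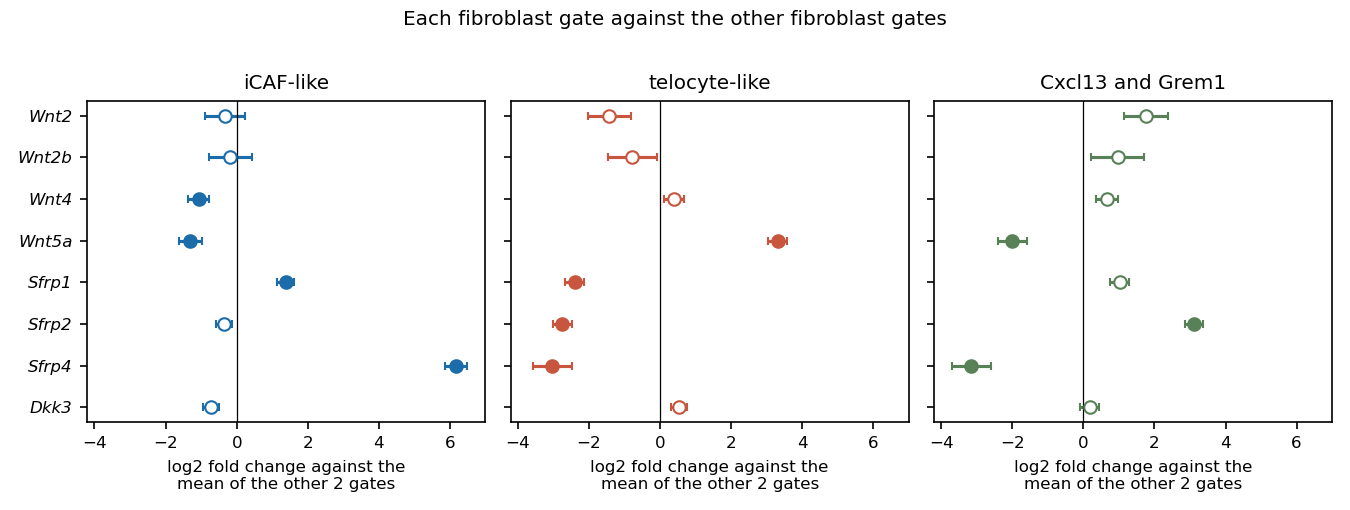
Difference of each fibroblast gate from the mean of the other 2 (log2 fold change with its SE) for 8 genes; filled points passed the test, and the R-spondins are left out because 1 or more gates held almost none of their transcripts. *Sfrp4* reaches 6.18 in iCAF-like wells, *Wnt5a* 3.31 in telocyte-like wells and *Sfrp2* 3.12 in the *Cxcl13* and *Grem1* gate, with the 3 Sfrp genes below 0 in telocyte-like wells.

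Whether the Sfrp genes exclude each other was asked well by well. Of 537 fibroblast wells, *Sfrp1* was found in 444, *Sfrp2* in 248 and *Sfrp4* in 117. Wells were reduced to 1000 transcripts, which left 515, and in each mouse the wells with both genes of a pair were compared with the number expected from the shares with each gene. *Sfrp1* and *Sfrp2* were found together in 78 wells with 64.8 expected, and in 5 of 6 mice there were more such wells than expected (mean log2 ratio 0.26 ± 0.29 SD, n = 6; exact two-sided permutation p = 0.094, 0.28 adjusted over the 3 pairs). *Sfrp1* and *Sfrp4* were found together in 25 wells with 24.8 expected (mean log2 ratio -0.01 ± 0.26 SD, n = 6; exact permutation p = 1.0). For this second pair 3 mice had a ratio other than 0, with which the exact permutation test cannot give a p below 0.25. Plate 1 had 8 wells with 9.82 expected, plate 5 had 6 with 7.12 and plate 2 had 11 with 7.86. Summed over the mice, neither pair was found together less often than expected.

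*Sfrp2* and *Sfrp4* were found together in 8 wells with 11.5 expected. On plate 1 there was 1 such well with 3.8 expected, on plate 2 there was 1 with 3.61 expected, and on plate 5 there were 6 with 4.10 expected. The mice did not go one way, and the other 3 had no well with *Sfrp4* at this depth, so that their ratio was 0 by construction. The mean log2 ratio was -0.41 ± 0.85 SD (n = 6; exact permutation p = 0.50, 0.75 adjusted), where 3 mice with a ratio other than 0 cannot give a p below 0.25. At high levels, without reduction, 97 wells had at least 10 *Sfrp2* transcripts and 36 at least 10 *Sfrp4* transcripts, and 1 well had both, with 7.29 expected. All 3 mice with such wells were below expectation, with 0 wells for 3.95 expected on plate 1, 1 for 2.67 on plate 2 and 0 for 0.672 on plate 5, which is the smallest p these mice can give (exact permutation p = 0.25, 0.38 adjusted). Within iCAF-like wells alone, which removes the difference between gates, 1 well had both with 5.48 expected (p = 0.25 by the exact permutation test). Exclusion of *Sfrp2* and *Sfrp4* at high levels could thus not be shown with these mice, and the cut at 10 was chosen after the data had been seen. For *Sfrp1* and *Sfrp2* the same cut gave 72 wells with 47.1 expected, with more than expected in 6 of 6 mice (exact permutation p = 0.031, the smallest 6 mice can give, 0.094 adjusted). Within iCAF-like wells this cut gave 31 wells with 23.7 expected (exact permutation p = 0.062, 0.19 adjusted), and without the cut 114 wells with 111 expected (mean log2 ratio 0.01, exact permutation p = 1.0). These wells were not brought to 1 depth.

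Many wells were still dominated by 1 of the 3 genes. In 364 fibroblast wells with at least 5 Sfrp transcripts, *Sfrp1* had the most transcripts in 268, *Sfrp2* in 66 and *Sfrp4* in 30. The leading gene made up a median of 89.7%, 71.1% and 80.01% of the 3 genes' transcripts in these wells. All 30 wells led by *Sfrp4* were iCAF-like, and 12 of 40 wells of the *Cxcl13* and *Grem1* gate were led by *Sfrp2*, compared with 32 of 220 iCAF-like wells. Whether the 3′ ends of these genes are captured equally well was not tested.

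**Figure D4:**
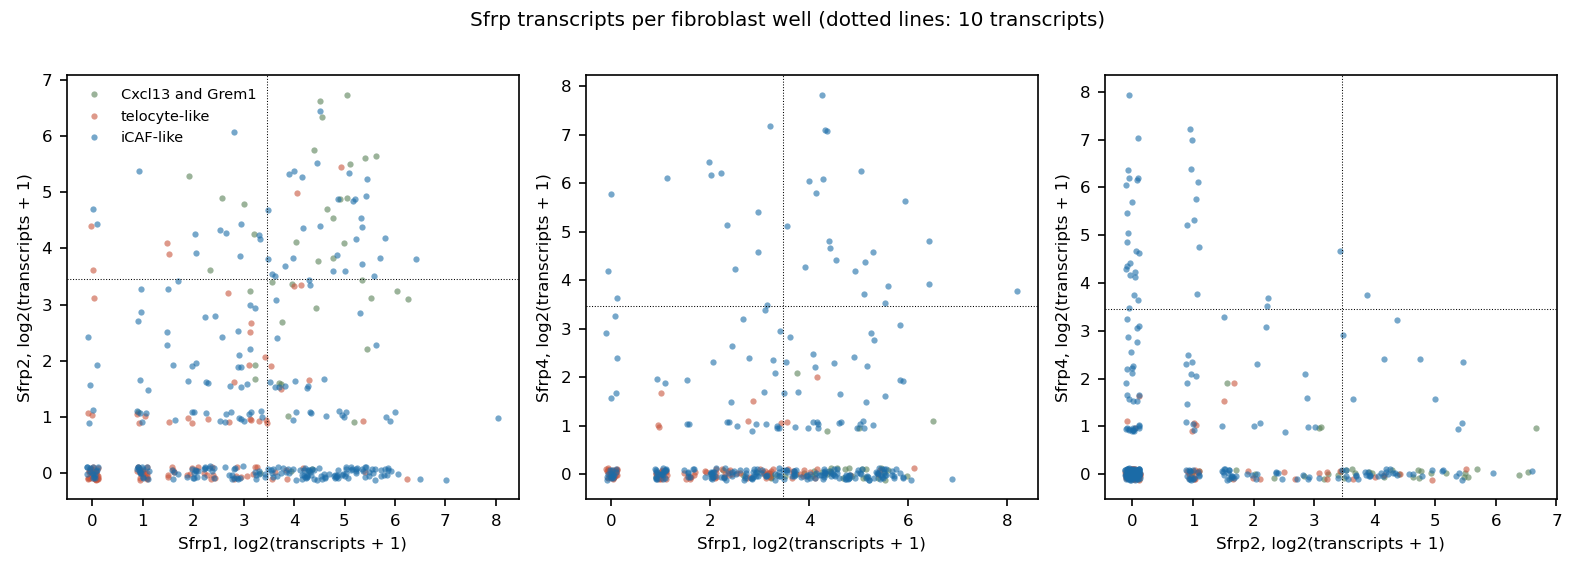
Transcripts of 2 Sfrp genes per gated fibroblast well, as log2(transcripts + 1) with a small random shift; colors are gates, and dotted lines mark 10 transcripts. Wells high in both *Sfrp1* and *Sfrp2* are common (72 of all fibroblast wells), and the upper right corner of the plot of *Sfrp2* against *Sfrp4* holds 1 well.

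Between genotypes none of the 10 genes passed the test. Fibroblast wells of each mouse were summed and the 3 Zeb1Fib-deleted mice compared with the 3 Zeb1Fib-Ctrl mice (edgeR quasi-likelihood test over 8600 genes, *Rspo1* left out by the filter on low counts). Of the 9 genes tested 0 were called, as were 0.0% of all genes with edgeR, where 149 genes (1.73%) had an unadjusted p under 0.05. DESeq2 called 5 genes (0.0582%), none of them among the 10, and 1.16% of genes had an unadjusted p under 0.05 with it. None of the 9 had an unadjusted p under 0.05 with either tool, and DESeq2 gave none for *Sfrp4*. None of the 9 had groups of mice that did not overlap, compared with 6.6% of all genes. With the sum over wells, fewer cells of a type and less RNA per cell cannot be told apart.

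The largest differences were those of *Rspo3* and *Wnt5a*. *Rspo3* stood at 7.05, 31.3 and 10.2 CPM on plates 1, 3 and 4 and at 23.7, 14.2 and 37 CPM on plates 2, 5 and 6, a difference (deleted minus Ctrl) of 1.04 on the log2 scale (95% interval -0.22 to 2.29, edgeR unadjusted p = 0.095). It was 0.53 without plate 1 and 0.38 over all wells that passed the filter with at most 1 transcript each of *Ptprc* and *Epcam*. *Wnt5a* stood at 122, 100 and 576 CPM in Zeb1Fib-Ctrl mice and at 221, 86.2 and 92.4 CPM in Zeb1Fib-deleted mice, a difference of -0.90 (95% interval -2.29 to 0.48), which was 0.27 without plate 4. The share of telocyte-like wells among fibroblast wells was 13.3%, 30.8% and 59.3% on plates 1, 3 and 4 and 24.7%, 4.20% and 45.5% on plates 2, 5 and 6, and with the gates of a mouse weighted equally the difference of *Wnt5a* was -0.18 (limma, on the log2(CPM + 1) scale).

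The Sfrp genes differed in how well they were measured, with an SE of the log2 difference of 0.31 for *Sfrp1*, 0.37 for *Sfrp2* and 1.26 for *Sfrp4*. *Sfrp1* stood at 1478, 955 and 694 CPM in Zeb1Fib-Ctrl mice and at 1263, 1276 and 1456 CPM in Zeb1Fib-deleted mice, with a difference of 0.36 (95% interval -0.33 to 1.05), between 0.10 without plate 4 and 0.77 without plate 1 when 1 mouse was left out, and 0.02 over all filtered wells. *Sfrp2* stood at 501, 207 and 231 CPM and at 518, 500 and 384 CPM, with a difference of 0.57 (95% interval -0.26 to 1.40), which was 1.19 without plate 1, 0.18 with gates weighted equally (limma) and -0.14 with wells of under 20% mitochondrial transcripts. For both genes the mice of plates 3 and 4 were the lowest and the Zeb1Fib-Ctrl mouse of plate 1 was the highest for *Sfrp1* and lay between Zeb1Fib-deleted mice for *Sfrp2*, so that the genotypes overlapped. *Sfrp4* stood at 558, 6.26 and 11.7 CPM and at 269, 233 and 0 CPM, with a difference of -0.22 and a wide interval (-3.05 to 2.61). Without plate 1 the difference was 4.25. For *Wnt2*, *Wnt2b*, *Wnt4* and *Dkk3* the differences were -0.15, -0.08, 0.35 and -0.44 on the log2 scale, with 95% intervals from -1.44 at the lowest to 1.56 at the highest. Leaving out 1 mouse turned the sign for *Wnt2*, *Wnt2b* and *Wnt4*, and brought *Dkk3* to -0.01 without plate 5. The p-values measure the spread between mice, each of which was 1 plate, so that plate and mouse cannot be told apart. Plate 6 came from another flow cell, which holds no Zeb1Fib-Ctrl plate, and without it 0 of 10 genes were called.

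**Figure D5:**
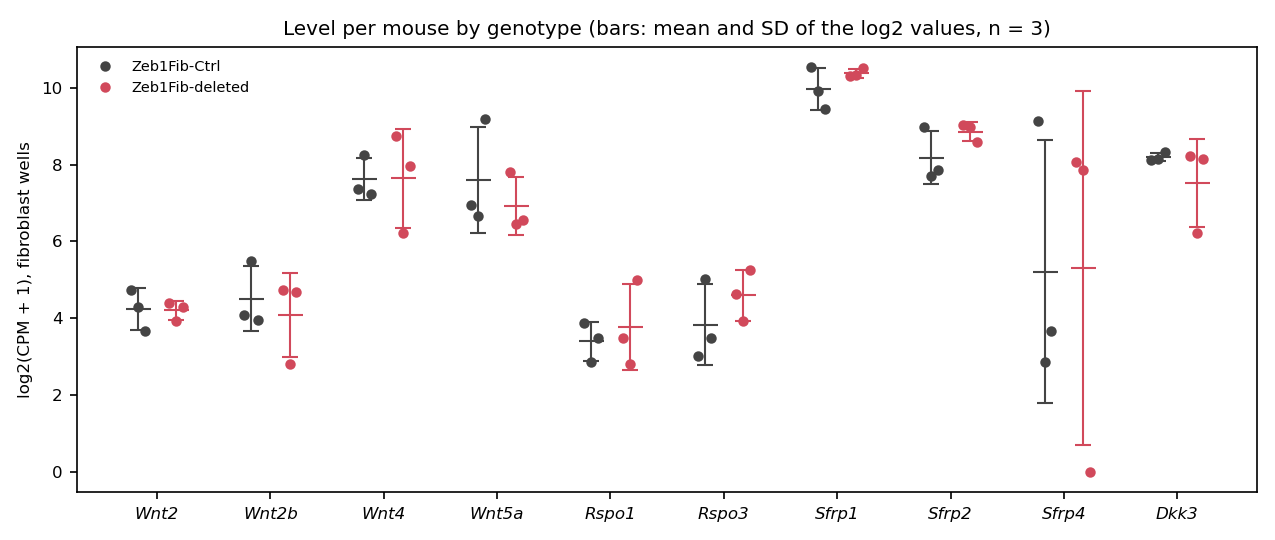
Level of the 10 genes in the summed fibroblast wells of each mouse, as log2(CPM + 1), with the mean and SD of these log2 values for 3 Zeb1Fib-Ctrl and 3 Zeb1Fib-deleted mice. The groups overlap for all 9 genes tested, and *Sfrp4* runs from 0 to 558 CPM.

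The other genes of the Wnt pathway were counted in 6 groups. Of 17 other ligands and R-spondins 12 were found and 3 passed the filter for the test. *Wnt5b*, like *Wnt5a* a ligand known for routes other than β-catenin, was higher in telocyte-like wells (1.54 on the log2 scale, SE 0.44, edgeR adjusted p = 0.025), a call lost without plates 1, 2 or 4 in turn (0.18, 0.22 and 0.088) and among fibroblast gates only (0.61). *Wnt9a* was called higher in iCAF-like wells (edgeR adjusted p = 0.019, 0.29 without plate 2 and 0.28 among fibroblast gates only) with 59 transcripts in the 12 sums.

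Of 12 other secreted modulators 7 were tested, and 5 were higher and 0 lower in telocyte-like wells, where 5.81% and 3.17% of all genes were called. Among fibroblast gates 3 of the 7 were higher there (*Wif1*, *Dkk2* and *Sfrp5*) and 0 lower, against 4.9% and 4.74% of all genes. *Wif1*, a Wnt inhibitory factor, stood at 282, 114 and 324 CPM in the telocyte-like sums of plates 1, 2 and 4 and at 4.58, 11, 12.5 and 54.5 CPM in the iCAF-like sums of plates 1, 2, 4 and 5 (5.89 on the log2 scale, SE 0.39, edgeR adjusted p = 3.4e-11). It was called without plates 1, 2 or 4 in turn, while leaving out plate 5 is no check of a difference between gates. *Dkk2* and *Sfrp5*, a Dickkopf antagonist and a further SFRP, were called higher there too, but 1 mouse held most of each. *Dkk2* stood at 73.4, 9.58 and 438 CPM on plates 1, 2 and 4 (edgeR adjusted p = 6.6e-05, 0.059 without plate 1), and *Sfrp5* at 420, 0 and 19.5 CPM (3.4e-05, 0.95 without plate 1). *Sostdc1*, a BMP and Wnt antagonist, was called higher in the *Cxcl13* and *Grem1* gate (edgeR adjusted p = 1.7e-07) at 36.3 and 148 CPM on plates 1 and 2, yet 87.6 CPM were found in the telocyte-like sum of plate 4, where that gate had 2 wells and no sum. The median log2 difference of the 7 modulators was 2.66 in telocyte-like wells, with 0.05 for all genes.

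*Wls*, which carries Wnt proteins to the cell surface for release, was higher in telocyte-like wells by 0.71 (SE 0.20, edgeR adjusted p = 0.025, between 0.051 and 0.41 without plates 1, 2 or 4, and 0.45 among fibroblast gates only) and lower in pericyte-like wells by -1.20 (SE 0.25, edgeR adjusted p = 0.00061). Of 23 receptors 15 were tested, with 3 higher in iCAF-like, 4 in telocyte-like and 2 in *Cxcl13* and *Grem1* wells (8.2%, 5.81% and 3.29% of all genes), and 4 lower and 1 higher in pericyte-like wells (9.97% and 10.1%). When fibroblast gates only were compared, 1 receptor was higher in iCAF-like wells, *Fzd4* (edgeR adjusted p = 0.0040, with 5.0% of all genes higher), and 0 were higher in the other 2 gates. The Frizzled receptors *Fzd1* and *Fzd2* were lower in pericyte-like wells by -3.43 and -4.19 on the log2 scale (SE 0.32 and 0.51, edgeR adjusted p = 2.6e-09 and 3.4e-07). *Fzd4* was called higher in iCAF-like wells (edgeR adjusted p = 0.0092), at 26.6, 11, 6.27 and 19.8 CPM on plates 1, 2, 4 and 5. The call was lost without plate 1 (0.30) and without plate 2 (0.097). *Fzd4* was also the receptor called higher in pericyte-like wells (edgeR adjusted p = 0.019, 0.23 without plate 1 and 0.24 without plate 2). Pericyte-like sums held 33.7, 12.3 and 0 CPM on plates 1, 2 and 4. On plates 1 and 2 these were above the iCAF-like sums, so that *Fzd4* was not limited to iCAF-like wells.

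Of 12 transducers 10 were tested. *Lef1*, a TCF/LEF factor and itself a target of β-catenin signaling, stood at 28.2, 42.4 and 46.2 CPM in the telocyte-like sums of plates 1, 2 and 4, and no more than 7.43 CPM in any other sum (edgeR adjusted p = 5.1e-05). Of 8 targets 6 were tested. In telocyte-like wells 2 were higher and 1 lower, against 5.81% and 3.17% of all genes. In iCAF-like wells 1 was higher and 1 lower, against 8.2% and 3.44% of all genes. *Wisp1* was higher in telocyte-like wells by 1.86 (SE 0.32, edgeR adjusted p = 0.00020). It stood at 155, 110 and 107 CPM in the telocyte-like sums of plates 1, 2 and 4. The pericyte-like sums of these plates held 13.5, 53.9 and 132 CPM, so that on plate 4 the pericyte-like sum was the higher one. The calls of *Lef1*, *Wisp1*, *Myc* and *Ccnd1* in iCAF-like and telocyte-like wells given here were also made among fibroblast gates only. *Ccnd1*, the gene of cyclin D1, and *Myc* went opposite ways in these 2 gates, while both were higher in pericyte-like wells (1.71 for *Myc* and 2.60 for *Ccnd1*, edgeR adjusted p = 0.0058 and 8.7e-07, with 0.059 for *Myc* without plate 4). *Myc* was higher in iCAF-like wells by 2.26 (SE 0.37, edgeR adjusted p = 7.7e-05, 0.060 without plate 1) and lower in telocyte-like wells by -3.39 (SE 0.63, edgeR adjusted p = 0.00052). *Ccnd1* was lower in iCAF-like wells by -3.26 (SE 0.51, edgeR adjusted p = 4.2e-05) and higher in telocyte-like wells by 1.53 (SE 0.35, edgeR adjusted p = 0.0037, 0.090 without plate 1). Both genes respond to many signals besides Wnt. Between genotypes 0 genes of the 6 groups were called with edgeR, and 1 secreted modulator and 1 target had an unadjusted p under 0.05.

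The genes whose levels followed those of 4 members most closely over the 12 sums were found by the correlation of log2(CPM + 1). For *Sfrp1* they were *Lpar1*, *Fbln2* and *Pcsk6* (r = 0.98, 0.97 and 0.97), for *Sfrp2* *Mettl21e*, *Cpq* and *Ier2* (r = 0.95, 0.94 and 0.93), for *Sfrp4* *AW551984*, *Ccl7* and *Col8a1* (r = 0.92, 0.90 and 0.89) and for *Wnt5a* *Bean1*, *Adam19* and *Tmem190* (r = 0.93, 0.93 and 0.92). The sums of a mouse share their plate and those of a gate their markers, so that these values describe the 12 sums and are no test. Of all genes tested, 1% had an r of at least 0.89, 0.86, 0.77 and 0.77 with *Sfrp1*, *Sfrp2*, *Sfrp4* and *Wnt5a*.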

How the data were processed

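Colon tumor cells of 6 mice were sorted with 1 cell per well, 1 plate per mouse, and all plates carried the same 384 well barcodes by design. Per the labels and the study's methods, read 1 gave the authors the well, BWA placed read 2 on transcripts of GRCm38, and the submitters' processing notes also list Cell Ranger 2.1.1. They deposited barcode counts per gene and well, and estimated counts of transcripts, which correct these for barcodes drawn more than once. The estimated counts were used and rounded to whole numbers after summing. A table lists only genes found on its plate, and *Sfrp4* was taken as 0 on the plate without it.

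Spike-in rows (7.845% to 18.583% of a plate's transcripts) were left out of library sizes. Wells with 100 to 6000 genes and under 10% mitochondrial transcripts were kept. No doublet caller was run. Fibroblast wells held at least 5 of 10 markers, at most 1 transcript each of *Ptprc* and *Epcam*, and a share of the fibroblast list at least 2 times that of the neutrophil, epithelial and endothelial lists. They went to the gate with the most markers found, at least 2 of 8, and to none on a tie. Pericyte-like wells held at least 4 of 8 markers and more than of any gate. Sums of at least 10 wells per mouse and gate were tested with edgeR 4.0.16 (quasi-likelihood, TMM, filterByExpr, Benjamini-Hochberg at 0.05) in R 4.3.3, with mouse in the model for gates and without covariates for genotypes. Alternatives were DESeq2 1.42.0, limma 3.58.1 for gates weighted equally, no filter, barcode counts, under 20% mitochondrial transcripts, 1 marker more, at least 5 wells, no mouse in the model and leaving out each mouse. The scripts were tested on simulated data.

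For pairs of Sfrp genes, 0.5 was added to observed and expected wells, and the log2 ratios of the mice were tested by exact two-sided sign changes. All 10 genes were named. Those named from each group of other Wnt genes are among the up to 4 per gate with the largest change among those called. Not all of these were described. *Wnt11*, *Tcf7l1* and *Tcf7l2*, called lower in pericyte-like wells, are examples of those left out. The 3 nearest genes were taken by Pearson correlation. The members and lists were chosen with earlier results of these data known, and the rule that scores the gates was set after values had been seen. Floors (3 counts) cover counting error only, while the 95% intervals of the genotype fit include the spread between mice.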

Additional observations from a re-analysis of the deposited data

Results flagged for a closer look

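Of 20 groups of samples checked for a sample far from the others, 3 held one, where chance alone gives about 1 in 20 groups. *Wnt5a* in all fibroblast wells stood at 576 CPM on plate 4 (Zeb1Fib-Ctrl), with the nearest mouse at 221 CPM. Telocyte-like wells made up 59.3% of the fibroblast wells of this mouse, and within telocyte-like wells it stood at 868 CPM, with 475 and 509 CPM on plates 1 and 2. *Dkk3* stood at 73 CPM on plate 5 (Zeb1Fib-deleted), with the nearest mouse at 277 CPM. Within iCAF-like wells the same mouse held 44.6 CPM, with 150 to 257 CPM on plates 1, 2 and 4. *Rspo1* stood at 30.8 CPM on plate 6 (Zeb1Fib-deleted), with the nearest mouse at 13.6 CPM. This value rests on 5 transcripts in 1 of 11 fibroblast wells.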

How the results depend on the processing

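Of 40 comparisons of a member with a gate 22 were called, and between 14 and 24 when 1 mouse was left out, with 14 of 36 without Zeb1Fib-deleted replicate 1 (plate 2). The fit without a filter called 25, and the fit without mouse in the model 16. Over the members' calls by gate and settings, 223 values stayed on their side of the threshold, 27 lost the call and 1 turned its sign. That was *Sfrp2* in iCAF-like wells, at -0.37 on the log2 scale among fibroblast gates only, a contrast chosen after the data had been seen, which drops the pericyte-like wells with their low level. *Sfrp1* and *Sfrp4* in iCAF-like wells, *Wnt5a* in telocyte-like wells and *Sfrp2* in the *Cxcl13* and *Grem1* gate were called in 12 of 12 settings. These settings, and the 223 values, include leaving out plate 5, which is no check of a difference between gates. *Sfrp2* and *Sfrp4* in telocyte-like wells lost their calls without plate 1 (edgeR adjusted p = 0.37 and 0.095), without plate 2 (0.35 and 0.47) and without mouse in the model (0.10 and 0.34), and the call of *Sfrp4* in pericyte-like wells was lost in the last (0.18). The cause was not tested. Between genotypes 0 members were called in all settings, but 6 of 9 genes changed sign in at least 1, in 11 of 117 values. With under 20% mitochondrial transcripts the log2 difference was -0.14 for *Sfrp2*, 0.077 for *Wnt2b* and -0.21 for *Wnt4*, and with gates weighted equally -0.093 for *Wnt4*. Without plate 1 it was 4.25 for *Sfrp4* and 0.47 for *Wnt2*, without plate 2 -0.41 for *Wnt4*, without plate 3 0.24 for *Wnt2b*, without plate 4 0.27 for *Wnt5a*, without plate 5 0.38 for *Wnt2b* and without plate 6 0.25 for *Sfrp4*. Over the mice left out in turn, the range was -0.78 to 4.25 for *Sfrp4*, -0.46 to 0.47 for *Wnt2*, -0.87 to 0.38 for *Wnt2b*, -0.41 to 0.81 for *Wnt4* and -1.52 to 0.27 for *Wnt5a*. The cause of these changes was not tested. No Sfrp pair passed after adjustment in any setting. The mean log2 ratio of *Sfrp1* and *Sfrp4*, near 0, turned to 0.195 without thinning, 0.13 at a deeper thinning, 0.24 with barcode counts, 0.10 with under 20% mitochondrial transcripts, 0.15 at 5 and 0.070 at 10 transcripts per gene, and was between -0.10 and 0.046 with 1 mouse left out. The cut-offs of 5 and 10 transcripts and the restriction to iCAF-like wells with 10 transcripts were also chosen after the data had been seen. No paired analysis was possible because the labels tie no Zeb1Fib-Ctrl mouse to a Zeb1Fib-deleted mouse. Plates 3 and 6 had 13 and 11 fibroblast wells and limit every comparison of genotypes, and 77 to 137 transcripts in all limit what can be said of the R-spondins, *Wnt2* and *Wnt2b*.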

Other observations

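The 110 fibroblast wells without a gate entered no comparison of gates. Of 93 such wells reduced to 1000 transcripts, *Sfrp1* was found in 51.6%, *Sfrp2* in 34.4%, *Dkk3* in 29.03%, *Wnt4* in 19.4%, *Wnt5a* in 6.45% and *Sfrp4* in 3.23%. Summed over the 6 mice, these wells held 1742 CPM of *Sfrp1* and 712 CPM of *Sfrp2*.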
